A study of Schizosaccharomyces pombe with 3 samples.

Results

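The comparison set the array labelled asf1-1 against the array labelled wild type, 2 of the 3 samples of a study of acetylated lysine 9 of histone H3 (H3K9ac) in the fission yeast Schizosaccharomyces pombe. It took in every probe of the genomic tiling that was not marked as an outlier, 43912 of 43993. The tested strain carries the asf1-1 allele of asf1, and the labels give no further allele or marker for either strain. The remaining strain, an alp13 deletion, is used only where its values stand beside those of the other strains. All 3 cultures grew logarithmically in rich medium at 30 °C per the labels, followed by fixation with 3% paraformaldehyde at 18 °C and shearing of the chromatin into fragments of 500 to 1000 bp. Each strain had 1 array, so no difference below has a test or a replicate error, and the labels do not say how many cultures stood behind an array.

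H3K9ac is laid down by acetyltransferases such as those of the SAGA complex and is found mainly at promoters and the beginnings of active genes. The mark is removed by histone deacetylases such as the Clr6 complex, of which Alp13 is a chromodomain subunit. Asf1 is a chaperone that hands newly made or displaced histones H3 and H4 to other chaperones, among them the HIRA complex, which places them on DNA outside replication. The comparison asks where acetylation differs when Asf1 function is altered.

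The immunoprecipitate was labelled with Cy5 on every array, and DNA of the whole-cell extract with Cy3. A probe's value is log2 of processed Cy5 over processed Cy3, minus the median of that array. A change is the asf1-1 value minus the wild-type value. Median Cy5 intensity was 1896 on the asf1-1 array and 1809 on the wild-type array, and median Cy3 intensity was 1693 and 1811 in the same order. The spread of values over probes was also close, with an SD of 0.893 on the asf1-1 array and 0.917 on the wild-type array. Across 43912 probes the arrays correlated at r = 0.894, a description over probes that share fragments and hybridisation. Both arrays lay on 1 slide and were scanned together. Neither asf1 nor alp13 has a probe, so the strain labels could not be checked. The authors' deposited value column for asf1-1 ran against the scanner log ratio of its own array (r = -0.58). The wild-type column followed its own array only weakly (r = 0.23), and the alp13 deletion column had r = 0.53. Which hybridisation each column holds is not known. No array of total H3 was used here, so fewer H3 molecules and less acetylation per molecule cannot be told apart.

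The error within an array could be read from 239 probe pairs, where the beginning of an extra contig repeats a stretch of chromosome II. The SD of a single probe's change there was 0.0768 on the log2 scale. This covers hybridisation within 1 array pair and leaves out differences between cultures and immunoprecipitations. Over all kept probes the change had an SD of 0.417 and ran from -2.33 to 1.93. By at least 1.5-fold (0.585 on the log2 scale), 5.02% of probes were higher and 10.03% were lower.

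The arrays differed in how the mark was spread between sequence outside genes and gene interiors. Upstream of genes the wild-type peak was flattened in asf1-1, and inside genes the wild-type trough was shallower. Within 500 bp upstream of protein-coding genes, the median log ratio was 0.23 in asf1-1 and 0.59 in wild type over 5215 probes, a median change of -0.35. In the middle of 3 equal parts of each gene it was -0.04 in asf1-1 and -0.25 in wild type over 9597 probes, a median change of 0.15. Of the upstream probes 9.78% were higher in asf1-1, against 70.7% of the probes in the middle part. The signs are relative to the array medians, and centring on probes between genes put the upstream class at 0.085 and the middle part at 0.58. The difference between these classes does not depend on centring. It was 0.49, and it was 0.39 on Cy5 alone.

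The first part of genes stood at 0.23 in asf1-1 and 0.26 in wild type, with a median change of -0.07 that turned positive without centring (0.096), with centring on probes between genes (0.36) and with normexp background correction (0.011). The last part stood at -0.13 in asf1-1 and -0.22 in wild type, with a median change of 0.05. Probes within 500 bp downstream, which are not also upstream of a neighbour, had a median change of -0.31 over 1022 probes, which turned to 0.12 with centring on probes between genes. Probes more than 500 bp from any gene stood lowest against wild type, at 0.01 in asf1-1 and 0.72 in wild type over 2167 probes, and 15.3% of them were lower by at least 2-fold. No probe upstream, downstream or elsewhere between genes was higher by 2-fold.

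The change followed a smooth course along genes. In 529 genes of 1500 bp or more, the median was 0.18 in asf1-1 and 0.84 in wild type at 900 to 1000 bp before the start, a median change of -0.52. Over the 100 bp before the start the change was -0.28, and it crossed 0 between 400 and 600 bp inside the gene. At 1000 to 1100 bp past the start the median was -0.02 in asf1-1 and -0.19 in wild type, with a change of 0.18. Before the gene end the change was at its highest, 0.20, at 800 to 900 bp from the end, and it was already -0.20 over the last 100 bp. Past the end it reached -0.39 at 600 to 700 bp. The asf1-1 curve thus stayed within a narrower band than the wild-type curve on both sides of the gene. Fragments of 500 to 1000 bp span several steps of this profile, so neighbouring steps are not independent.

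**Figure D1:**
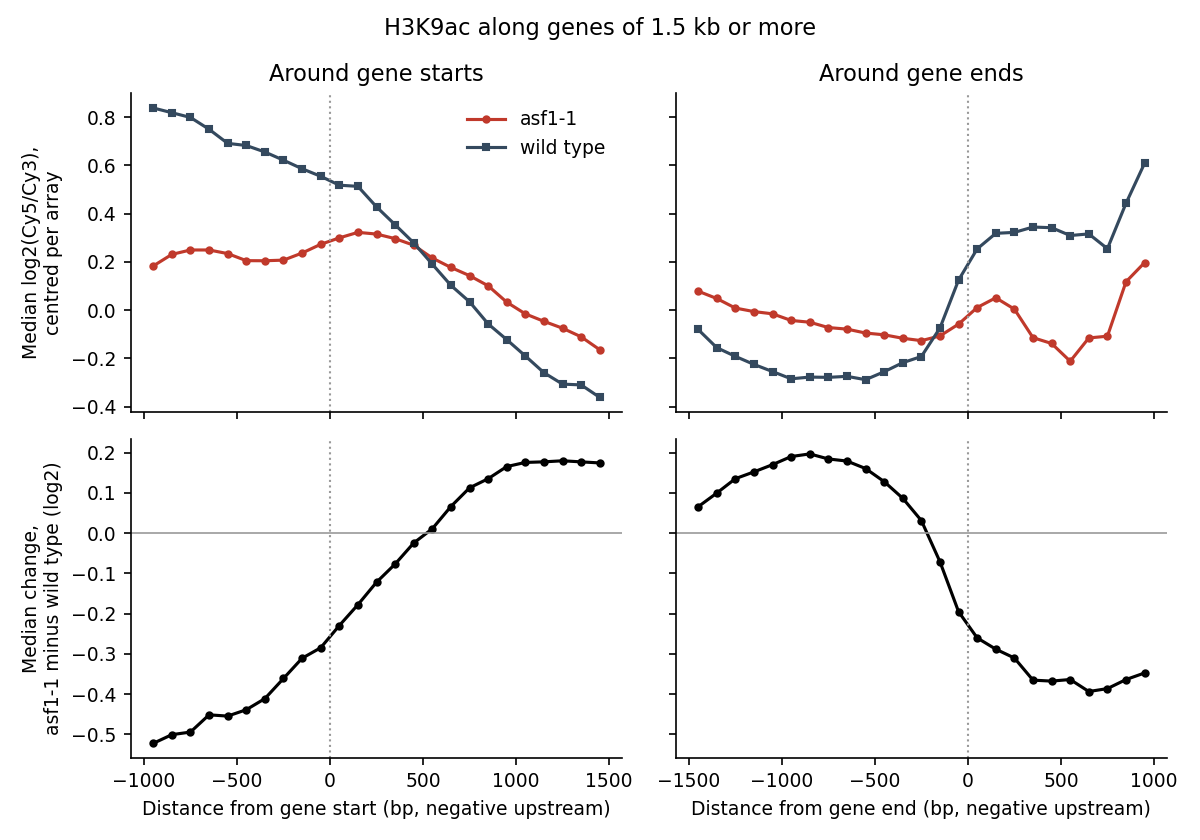
Median log2(Cy5/Cy3) of asf1-1 (red) and wild type (dark blue) in steps of 100 bp around the starts (left) and ends (right) of 529 genes of 1500 bp or more, with the median change below (black). The asf1-1 curve lies under the wild-type curve before the start, with a change of -0.52 at 900 to 1000 bp, and over the first 500 bp of the gene. It lies above wild type farther inside, where the change reaches 0.18 (left) and 0.20 (right), and below it again over the last 200 bp, relative to the array medians. With centring on probes between genes the whole change curve moves upward.

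The same contrast held gene by gene. Among 735 genes with 3 or more upstream probes outside other genes, 650 had a higher change in their middle part than upstream. In 400 of them (54.4%) the upstream change was negative and the middle change positive, and in 259 both were negative. Both were positive in 57 genes, and 19 had the opposite pattern. Across these genes the upstream and middle changes correlated weakly (r = 0.325), and both come from the same pair of arrays.

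Place and level were both related to the change. Among probes between genes, the median change was -0.24 where the mean level of both arrays was under -1 and -0.46 where it was over 1. Among probes inside 1 gene, the corresponding medians were 0.06 and -0.14. In the band of mean level from 0 to 1, probes between genes stood at 0.28 in asf1-1 and 0.74 in wild type, a change of -0.42 over 3797 probes. In the same band, probes inside genes stood at 0.44 in asf1-1 and 0.42 in wild type, a change of 0.00 over 11916 probes. At a like level of acetylation the change thus differed between these places. Upstream of genes the median change was -0.29 in Cy5 and 0.05 in Cy3. In the middle part it was 0.10 in Cy5 and -0.06 in Cy3, beside 0.15 in the log ratio. In the last part it was 0.003 in Cy5 and -0.06 in Cy3, beside 0.05 in the log ratio. The part that the extract channel plays inside genes was not tested.

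Relative to the array medians, whole regions between protein-coding genes were lower in asf1-1 far more often than higher. Of 521 such regions with 3 or more probes outside centromere 2 and the right chromosome end, 90 were lower by 1.5-fold (17.3%), and 0 were higher (0%). In all, 454 had a negative change relative to the array medians. Divergent regions, which hold the promoters of both neighbours, had medians of 0.31 in asf1-1 and 0.73 in wild type over 193 regions, with a median change of -0.39. Tandem regions had a median change of -0.28 over 276 regions, and convergent regions, which hold no promoter of the flanking genes, one of -0.24 over 52 regions. Long regions changed most. The median change was -0.23 in 266 regions under 500 bp and -0.33 in 134 regions of 500 to 1000 bp. It was -0.47 in the next 89 regions by length (median 1271 bp) and -0.50 in the 32 longest (median 2988 bp). Among divergent regions alone the medians ran from -0.28 in the shortest class to -0.55 in the longest. With centring on probes between genes, all these values would move upward by the same amount, and their order would not change. That shift took the median protein-coding gene from 0.00 to 0.43. The divergent, tandem and convergent medians would then be positive. Those of the longer regions (-0.47 and -0.50) would stay slightly negative.

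The 5 lowest of these regions were all lower by more than 2-fold. Between pat1, which encodes an inhibitor of meiosis, and mug124 (chromosome II, 1684556 to 1685237), the mean was -0.62 in asf1-1 and 0.74 in wild type, a change of -1.36 ± 0.36 (SD across 13 probes). Between sfc3 and spc24 (2755162 to 2755425) it was 0.58 in asf1-1 and 1.79 in wild type. Between knh4 and apc10 (1972800 to 1973361) it was -0.82 in asf1-1 and 0.36 in wild type. Between eno101 and cut2 (2202653 to 2202999) it was -0.65 in asf1-1 and 0.52 in wild type. Beside tkt1, the transketolase gene of the pentose phosphate pathway, the region toward hmt2 stood at -1.60 in asf1-1 and -0.48 in wild type. At the other end, the region between exo5 and SPBC685.03 stood at 0.39 in asf1-1 and -0.19 in wild type, a change of 0.58, just under the threshold.

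Relative to the array medians, a smaller share of genes than of regions between genes passed 1.5-fold, and this order rests on the centring. Of 886 protein-coding genes on chromosome II with 3 or more probes, 15 were higher (1.69%) and 19 lower (2.14%) by 1.5-fold in asf1-1. At 2-fold, 0 were higher and 3 lower. The split between directions rests on the centring: it was 49 higher and 10 lower without centring, and 244 higher and 3 lower with centring on probes between genes. The median change of all genes was 0.00, 0.17 and 0.43 under these 3 settings. On Cy5 alone, 3 genes were higher and 10 lower. The median over all genes was 0.10 in asf1-1 and 0.08 in wild type.

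**Figure D2:**
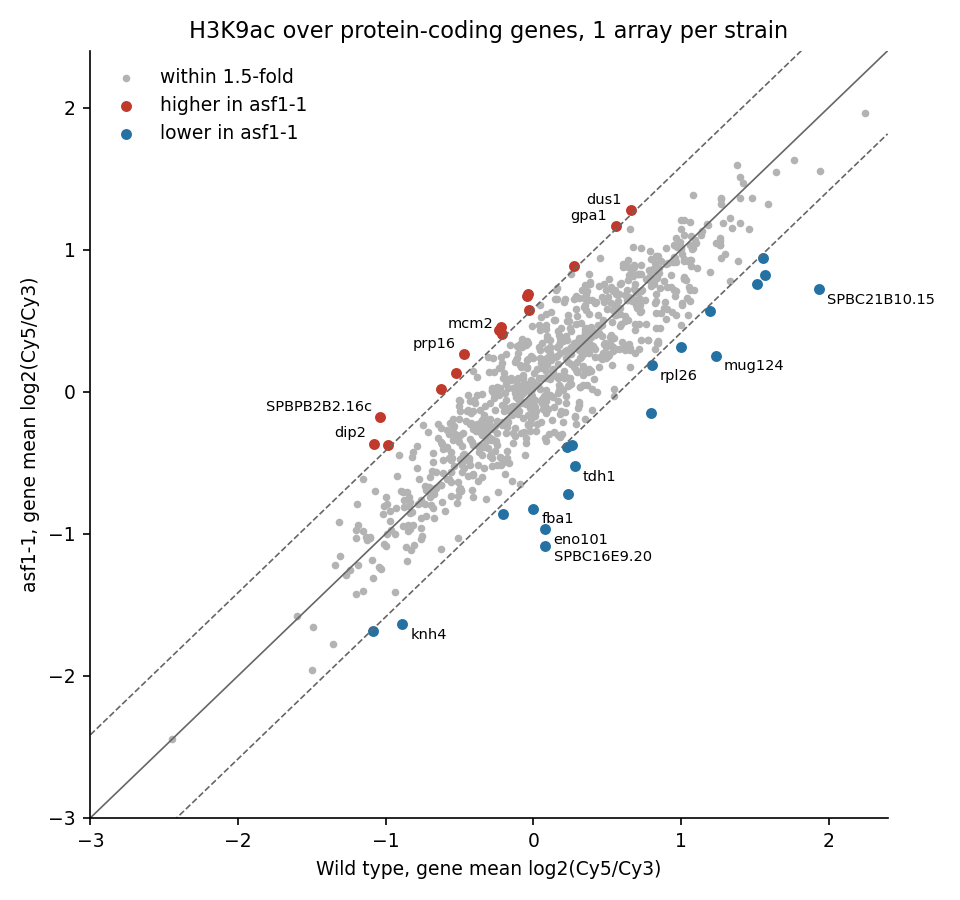
Mean log2(Cy5/Cy3) over the probes of each of 886 protein-coding genes, asf1-1 on the vertical axis against wild type on the horizontal axis; the solid line marks equal values and the dashed lines 1.5-fold. The 15 higher genes (red) and 19 lower genes (blue) lie outside the dashed lines, with eno101, SPBC16E9.20 and SPBC21B10.15 past 2-fold, relative to the array medians; centring on probes between genes gives 244 higher and 3 lower.

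The 15 higher genes were long and had low acetylation in wild type. Their median length was 2667 bp against 952 bp for the lower genes and 1717 bp for the 852 genes within 1.5-fold. Of the 15, 12 were below the array median in wild type, whereas 16 of the 19 lower genes were above it. Of the 852 genes within 1.5-fold, 385 were below it and 467 above. A ranking on asf1-1 minus wild type favours low wild-type values in higher genes and high values in lower genes. Over all 886 genes the change was higher in longer genes (rho = 0.402, a description across genes on the same arrays). Among the 223 shortest genes (129 to 1209 bp) 0 were higher and 13 lower, with a median change of -0.15. Among the 222 longest (2455 to 11069 bp) 9 were higher and 0 lower, with a median change of 0.12. With genes split into 4 groups of near-equal size by mean level, the median change lay between -0.02 and 0.04 in each.

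The higher genes were called on the mean change of the probes inside them, so a high change there is part of the selection. The upstream flank took no part in the call. The median change of the 15 genes was 0.39 in the first part, 0.88 in the middle part and 0.73 in the last part. In the 852 genes within 1.5-fold these medians were -0.10, 0.08 and 0.01. Upstream of the 15 genes the median change was -0.14, and 11 of the 15 were below wild type there. So were 727 of the 852 genes within 1.5-fold, whose median upstream was -0.28. In the 15 higher genes Cy5 was higher by a median of 0.44, and Cy3 was lower in 14 of 15, by a median change of -0.18. Cy3 was also lower in 517 of the 852 genes within 1.5-fold. On Cy5 alone 3 genes in all passed 1.5-fold upward. The part that the extract channel plays in these calls was not tested.

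The gene prp16 (SPBC1711.17, chromosome II, 2166225 to 2169933), for an RNA helicase of the spliceosome, averaged 0.27 ± 0.19 in asf1-1 and -0.47 ± 0.44 in wild type (SD across 73 probes). In its first part it stood at 0.48 in asf1-1 and 0.05 in wild type, and in its last part at 0.17 in asf1-1 and -0.74 in wild type. The first and last parts thus differed more in wild type than in asf1-1, and all 73 probes of prp16 were higher in asf1-1. In mcm2, for a subunit of the replicative helicase, the middle part stood at 0.29 in asf1-1 and -0.60 in wild type, while the first part stood at 0.44 in asf1-1 and 0.17 in wild type. In trm734, for a tRNA modification factor, the middle part stood at 0.78 in asf1-1 and -0.35 in wild type.

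The middle part had the highest change of the 3 parts in 9 of the 15 higher genes and in 440 of the 852 genes within 1.5-fold. In blt1, whose product acts in cytokinesis, the middle part stood at 0.53 in asf1-1 and -0.48 in wild type. In mok12, for a spore wall glucan synthase, it stood at -0.09 in asf1-1 and -0.88 in wild type over a gene of 162 probes. In sqs1, for a G-patch protein, it stood at 1.03 in asf1-1 and -0.12 in wild type, but the downstream flank was 0.23 below wild type (change -0.23). The gene gcn20, for an ATPase, changed by 0.86 in its middle part and by -0.25 upstream. The mating genes gpa1, for the G protein subunit of pheromone signalling, and mam1, for the M-factor exporter, had upstream changes of -0.31 and -0.80 and middle-part changes of 0.91 and 0.79.

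The neighbours dip2, for a factor of the small ribosomal subunit processome, and pdi3, for a disulfide isomerase, converge and overlap, and their last parts changed by 0.97 and 1.01. Their overlap is a single stretch of probes, so these are not independent values. The vesicle sorting gene vps38 changed by 0.42, 0.76 and 0.83 from its first to its last part, and all its 42 probes were higher in asf1-1. The gene dus1, for a tRNA dihydrouridine synthase, averaged 1.28 in asf1-1 and 0.66 in wild type and was the only one of the higher genes with a wild-type mean above 0.6. SPBC19C2.10, for a BAR adaptor protein, averaged 0.67 in asf1-1 and -0.04 in wild type, with a Cy3 change of -0.37.

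SPBPB2B2.16c (4497937 to 4499394), a transporter gene of the major facilitator family in the right subtelomere, differed from the other higher genes in shape. It averaged -0.18 ± 0.28 in asf1-1 and -1.04 ± 0.36 in wild type (SD across 29 probes). Its upstream flank stood at 0.43 in asf1-1 and -1.02 in wild type, a change of 1.44, and the change declined to 0.66 in its last part. It is the one gene of the 15 whose Cy3 was not lower, with a Cy3 change of 0.01 and a Cy5 change of 0.87. In the alp13 deletion its change against the same wild-type array was -0.24, while the other 14 higher genes had positive changes there.

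**Figure D3:**
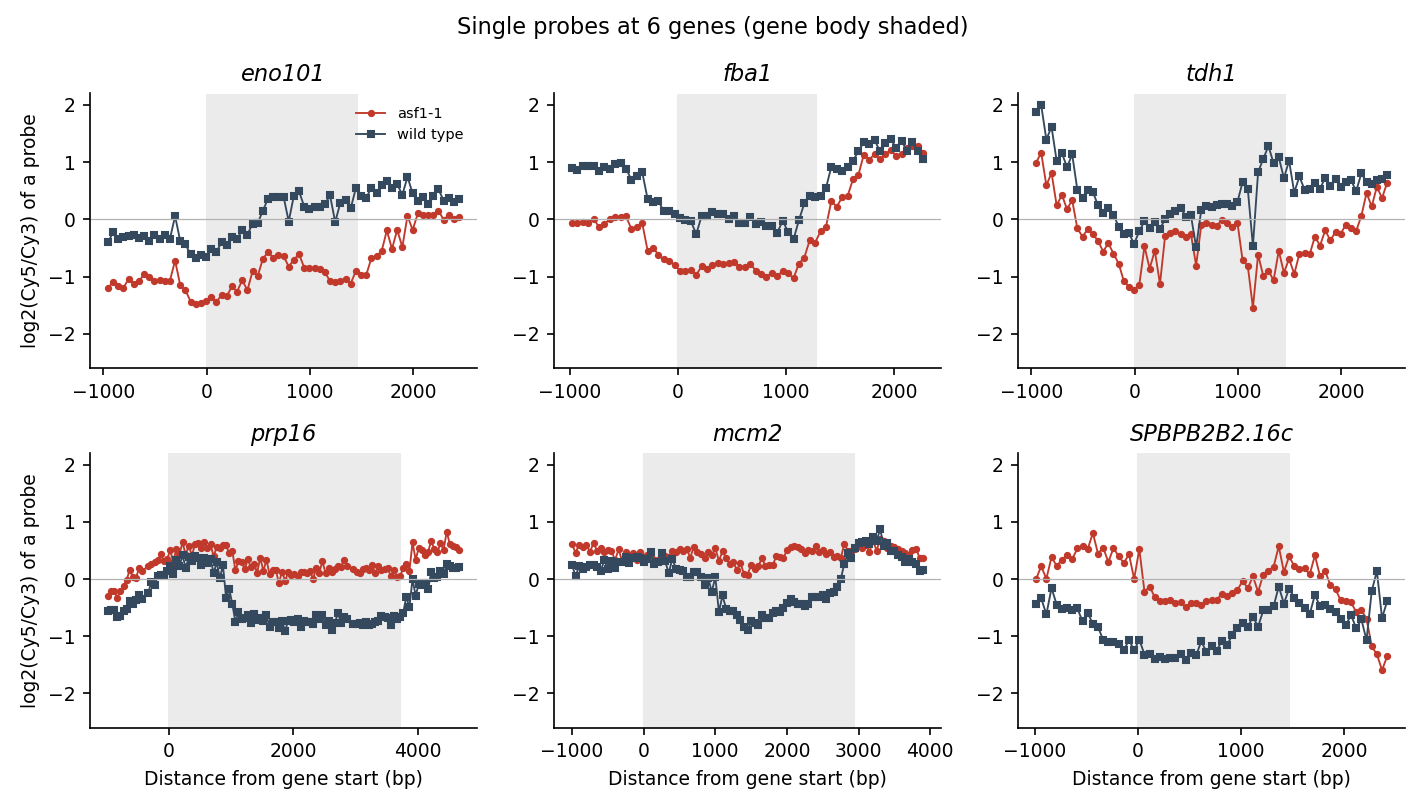
Log2(Cy5/Cy3) of single probes in asf1-1 (red) and wild type (dark blue) against distance from the gene start, for 3 lower genes (top) and 3 higher genes (bottom), with gene bodies shaded. In prp16 and mcm2 the asf1-1 values lie above the low wild-type values inside the gene, in eno101 and fba1 they lie below wild type along the whole gene, and in SPBPB2B2.16c the gap is widest upstream, relative to the array medians.

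The lower genes include 3 of the 4 measured glycolytic genes. As in all 19 lower genes, every probe inside them lay below wild type, relative to the array medians. Glycolysis converts glucose to pyruvate, and its enzymes are among the most abundant proteins of yeast. The gene eno101 (SPBC1815.01, 2201196 to 2202652), for enolase, averaged -0.97 ± 0.25 in asf1-1 and 0.08 ± 0.33 in wild type (SD across 29 probes). Its first part stood at -1.23 in asf1-1 and -0.34 in wild type, and its last part at -0.98 in asf1-1 and 0.26 in wild type. Its probes changed by -1.50 to -0.79, so every one lay below wild type.

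The gene fba1 (SPBC19C2.07, 1688321 to 1689599), for fructose-bisphosphate aldolase, averaged -0.82 ± 0.16 in asf1-1 and 0.00 ± 0.18 in wild type (SD across 26 probes). Its upstream flank and its 3 parts changed by between -0.87 and -0.79. The gene tdh1 (SPBC32F12.11, 2807595 to 2809051), for glyceraldehyde-3-phosphate dehydrogenase, averaged -0.53 ± 0.42 in asf1-1 and 0.28 ± 0.45 in wild type (SD across 29 probes), and its difference was largest at the 3′ side. Its middle part stood at -0.19 in asf1-1 and 0.13 in wild type, and its last part at -0.82 in asf1-1 and 0.70 in wild type. Its median over probes gave a change of -0.44, under the threshold. In all 3 genes the Cy5 change (-1.03, -0.80 and -0.79) made up nearly all of the change, and Cy3 changed by 0.01 to 0.03. This did not hold for the lower genes as a set. Over all 19, the median change was -0.55 in Cy5 and 0.13 in Cy3, and the Cy3 change was negative in 3. Across 886 genes the Cy3 change correlated with the change in log ratio at r = -0.65, a description only. The part that the extract channel plays in the lower calls was not tested.

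The fourth measured gene of the pathway, pfk1 (SPBC16H5.02), for phosphofructokinase, did not follow. It averaged -0.79 in asf1-1 and -0.99 in wild type, with a change of 0.20. Its upstream flank was lower than wild type, at 0.22 in asf1-1 and 0.57 in wild type, and its middle part higher, at -1.05 in asf1-1 and -1.36 in wild type. With centring on probes between genes, eno101 stayed past the threshold at -0.61, and fba1 (-0.40) and tdh1 (-0.38) did not.

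The 300 bases before the annotated starts of these 4 genes are shown because the 3 lower genes had changes of -0.87 to -0.75 over these bases and pfk1 one of -0.29. They were read from the RefSeq genome of build ASM294v3 and run 5′ to 3′ on the strand of the gene. The windows are chrII:2200896-2201195 (plus strand) for eno101, chrII:1688021-1688320 (plus) for fba1, chrII:2807295-2807594 (plus) for tdh1 and chrII:2300392-2300691 (minus) for pfk1. Capitals mark the TATA-type motifs TATAAA and TATATA and the CCAAT box, on either strand, so that ATTGG is a CCAAT read on the other strand.
eno101: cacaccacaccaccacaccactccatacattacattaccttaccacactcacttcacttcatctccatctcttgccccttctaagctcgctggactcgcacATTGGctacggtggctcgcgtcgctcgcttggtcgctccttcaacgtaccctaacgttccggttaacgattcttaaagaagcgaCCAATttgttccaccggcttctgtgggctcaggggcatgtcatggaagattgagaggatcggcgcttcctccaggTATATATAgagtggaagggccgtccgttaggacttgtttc
fba1: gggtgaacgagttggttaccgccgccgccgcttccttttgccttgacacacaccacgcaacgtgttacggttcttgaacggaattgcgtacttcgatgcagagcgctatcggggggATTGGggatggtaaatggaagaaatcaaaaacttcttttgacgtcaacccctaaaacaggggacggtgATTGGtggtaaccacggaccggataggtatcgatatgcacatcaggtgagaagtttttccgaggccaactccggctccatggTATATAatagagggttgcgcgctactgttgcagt
tdh1: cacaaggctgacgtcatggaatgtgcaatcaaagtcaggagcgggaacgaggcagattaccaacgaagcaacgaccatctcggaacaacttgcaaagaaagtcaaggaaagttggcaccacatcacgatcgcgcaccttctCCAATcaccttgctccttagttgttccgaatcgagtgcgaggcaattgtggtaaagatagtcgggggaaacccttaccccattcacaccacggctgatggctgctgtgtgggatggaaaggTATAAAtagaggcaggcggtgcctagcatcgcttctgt
pfk1: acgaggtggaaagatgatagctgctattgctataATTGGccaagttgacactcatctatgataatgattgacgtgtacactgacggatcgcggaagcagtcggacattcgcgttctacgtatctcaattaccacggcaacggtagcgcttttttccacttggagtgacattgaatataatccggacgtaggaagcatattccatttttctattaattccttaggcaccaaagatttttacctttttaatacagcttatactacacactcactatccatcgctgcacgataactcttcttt

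Each of the 3 lower genes had a TATA-type match whose first base lay 34 to 40 bases before the start: TATATA in eno101 and fba1, with 2 overlapping matches in eno101, and TATAAA in tdh1. The pfk1 window had no match to either motif. CCAAT occurred in all 4 windows, with 2 matches in eno101 and in fba1. Among the windows of all 886 measured genes, 49.0% held TATAAA, 32.1% TATATA and 42.9% CCAAT, so these matches are a description of the letters only. Over these 300 bases the mean was -1.36 in asf1-1 and -0.57 in wild type for eno101, a change of -0.80 over 6 probes. For fba1 it was -0.65 in asf1-1 and 0.23 in wild type, and for tdh1 -0.88 in asf1-1 and -0.13 in wild type. For pfk1 it was 0.21 in asf1-1 and 0.50 in wild type, a change of -0.29.

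Of all 19 lower genes, 9 are annotated as uncharacterized, as are 57 of the 852 genes within 1.5-fold. SPBC21B10.15 (1665510 to 1666095) had the lowest change, with a mean of 0.72 ± 0.44 in asf1-1 and 1.93 ± 0.18 in wild type (SD across 12 probes). Its first part stood at 1.21 in asf1-1 and 1.98 in wild type, and its last part, with a larger difference, at 0.25 in asf1-1 and 1.74 in wild type. SPBC16E9.20 (1951792 to 1952828) averaged -1.09 in asf1-1 and 0.08 in wild type, and its change was even, between -1.22 and -1.14 in its 3 parts, while the downstream flank changed by 0.08. All probes of each of the 19 lower genes were lower in asf1-1 relative to the array medians. In 4 of the 15 higher genes all probes were higher. All probes went the same way in 180 of the 852 genes within 1.5-fold. The calls used the mean of these same probes. The lower genes are also shorter, with a median of 952 bp against 2667 bp for the higher genes, so they hold fewer probes.

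SPBC1921.04c, with 8 probes, averaged -0.15 in asf1-1 and 0.80 in wild type, and it spans sno20. SPBC83.12 averaged 0.56 in asf1-1 and 1.20 in wild type.

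The gene mug124, one of a set named for higher transcript levels in meiosis, lies between the lowest intergenic region and fba1. It averaged 0.25 in asf1-1 and 1.24 in wild type over 41 probes, and both its flanks were lower too, with changes of -0.96 upstream and -1.40 downstream. The knh4 gene changed least at its beginning (-0.49) and more at its end (-1.12) and downstream (-1.21). SPBC19C7.04c had changes of -0.80, -0.99 and -1.09 in its 3 parts. The gene oxs1 averaged 0.31 in asf1-1 and 1.00 in wild type. Of the 3 parts, the last had the lowest change in 11 of the 19 lower genes and in 256 of the 852 genes within 1.5-fold.

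Overlapping genes share probes. SPBC2A9.14 contains SPBC2A9.13 on the opposite strand, and SPBC1711.15c likewise contains the meiotic recombination gene rec15, so each pair is 1 observation. SPBC2A9.14 averaged 0.82 in asf1-1 and 1.57 in wild type, and rec15 averaged -0.39 in asf1-1 and 0.23 in wild type. The mitochondrial ribosomal protein gene mrpl39 averaged 0.94 in asf1-1 and 1.55 in wild type. The cytosolic ribosomal protein gene rpl26 averaged 0.19 in asf1-1 and 0.80 in wild type, with its 9 probes changing by -0.67 to -0.53. SPBPB2B2.18 and SPBPB2B2.15, both in the right subtelomere near the higher gene SPBPB2B2.16c, averaged -0.86 and -1.68 in asf1-1, against -0.20 and -1.09 in wild type. The flank of SPBPB2B2.18 upstream of its start was not lower (change 0.17). All 19 lower genes also had negative changes in the alp13 deletion, which was set against the same wild-type array, so these are not independent. Among the 852 genes within 1.5-fold, 623 had the same sign in both comparisons. The gene eno101 changed by -1.51 there and tdh1 by -0.33.

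Gene lists of known function, which were drawn up with earlier results of these data known, mostly lay close to the median of all 886 genes (0.00, with 1.69% higher and 2.14% lower). The glycolysis list was the lowest, with a median change of -0.82 and 3 of 4 members lower. The list of 2 Tf2 retrotransposons followed, at -0.45 for Tf2-9 and -0.46 for Tf2-10, but their Cy5 changed by less than 0.01 and their Cy3 was higher by 0.45 and 0.46 in asf1-1. The Tf2 copies share their sequence with each other and with copies elsewhere. Of 3 histone genes none passed: hht2, for histone H3, averaged -0.63 in asf1-1 and -0.14 in wild type, and hhf2 and pht1, for histone H4 and the variant H2A.Z, changed by -0.20 and -0.19. Their signs turned with centring on probes between genes for the list median (0.23).

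At the other end, the tRNA modification list, drawn from product names and without trm734, held 3 genes, all positive, with a median change of 0.36, and dus1 passed the threshold. Of 11 genes whose product names speak of splicing, which leaves out the higher gene prp16, 8 were positive and 0 passed, with a median change of 0.26 and a range from syf2 at -0.33 to sen34, a tRNA-splicing endonuclease subunit, at 0.49. All 4 genes of the Clr6 and other histone deacetylase complexes were positive, from clr1 at 0.15 to the Sin3-family gene pst1 at 0.34, and none passed. Over all 886 genes 447 were positive. The median length of these 4 deacetylase genes was 4569 bp, and the 222 longest genes had a median change of 0.12. The part that gene length plays in these lists was not tested. Among histone chaperone genes, pcf1, for a subunit of the assembly factor CAF-1, changed by 0.25, nap2 by 0.22 and slm9, for a HIRA subunit, by 0.02. The medians of these 4 lists were positive under every alternative that was run. The SAGA acetyltransferase genes ranged from sus1 at -0.37 to ngg1 at 0.20, with a median of 0.04 that turned to -0.01 with gene medians.

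Of 12 replication and cell cycle genes, mcm2 passed, and the median change was 0.16; the securin gene cut2, the convergent neighbour of eno101, was lowest at -0.40. In the mating list gpa1 and mam1 passed among 7 genes, with a median of 0.12 that turned to -0.09 on Cy5 alone and -0.04 with normexp. Of 25 cytosolic ribosomal protein genes rpl26 passed, and the median was -0.03, which turned positive without centring (0.13). Of 22 membrane transporter genes SPBPB2B2.16c and mam1 passed, and the median was -0.06, which turned to 0.11 without centring. Among 7 meiosis genes rec15 passed and among 9 mug genes mug124, with medians of -0.04 and -0.15 that turned positive without centring (0.13 and 0.016) and with normexp (0.091 and 0.039). No stress response gene passed, with hsp16 lowest at -0.56. Of the mitochondrial ribosomal protein genes mrpl39 passed among 4. No member passed in the lists for rRNA processing, sterol synthesis, amino acid synthesis, translation factors, proteasome, vesicle traffic and heterochromatin, whose medians lay between -0.01 and 0.10. Apart from the vesicle traffic, proteasome and amino acid lists, their signs turned under at least 1 alternative.

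**Figure D4:**
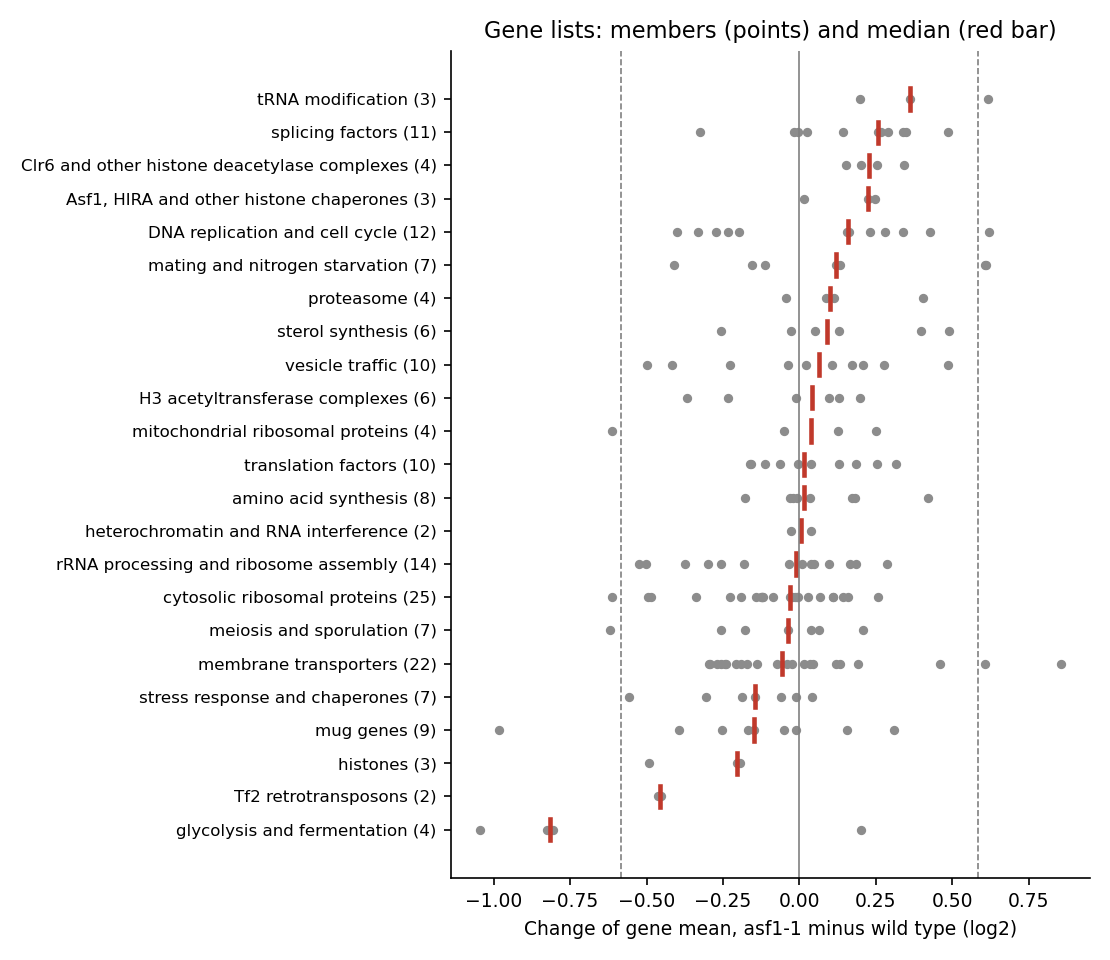
Change of the gene mean, asf1-1 minus wild type on the log2 scale, for the measured members of each list (grey points, number in brackets) and their median (red bar), with dashed lines at 1.5-fold. Glycolysis lies lowest at -0.82 and tRNA modification highest at 0.36, relative to the array medians; with centring on probes between genes these medians read -0.39 and 0.79, and those of the histone, stress, mug, ribosomal protein, meiosis, rRNA processing and transporter lists turn positive.

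Relative to the array medians, annotated non-coding RNA genes were lower more often than protein-coding genes. Of 1258 non-coding genes with 3 or more probes, 34 were higher (2.7%) and 165 lower (13.1%). Most were long non-coding RNAs, and their position set their change apart. Of 299 that overlap no protein-coding gene, 122 were lower and 3 higher, with medians of 0.00 in asf1-1 and 0.50 in wild type. Their median change of -0.51 is little larger than the shift that centring on probes between genes brings, which put the median protein-coding gene at 0.43. Of 937 that overlap a protein-coding gene, 40 were lower and 30 higher, with a median change of -0.03. Strands are not told apart by this assay, so a value for an RNA gene is one for the DNA under it.

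The lowest change of any gene, -2.09, was at snoU14, for a small nucleolar RNA of rRNA processing (1308634 to 1308745), which averaged -1.96 in asf1-1 and 0.13 in wild type over 3 probes. Beside it mamRNA, a non-coding RNA with a role in the turnover of meiotic transcripts (SPNCRNA.1715.1), averaged -2.11 in asf1-1 and -0.76 in wild type over 14 probes. At snoU14 Cy5 changed by -1.48 and Cy3 by 0.62, so the extract channel took part. Of 9 snoRNA genes 2 passed, snoU14 and sno20 (change -0.98). All 9 changes were negative relative to the array medians, up to -0.19 at snR36, but their median of -0.43 is no larger than the shift that centring on probes between genes brings. The highest change of any non-coding gene, 1.08, was at SPNCRNA.5437. SPNCRNA.5437 and SPNCRNA.5438, both within blt1, averaged 0.22 and 0.60 in asf1-1, against -0.86 and -0.44 in wild type. SPNCRNA.5206, within mok12, averaged 0.21 in asf1-1 and -0.79 in wild type.

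Stretches of large change were found with a running mean over 11 probes. On chromosome II, 17 higher and 55 lower stretches were found at 2-fold of this running mean, covering 10020 bp and 32950 bp. The mean change over a stretch's own probes can fall short of 2-fold, as at -0.93 in a lower one and 0.97 in a higher one. Of all stretches, 15 higher and 41 lower ones held 5 or more probes. Some stretches are neighbouring pieces of 1 region, several of them in centromere 2, so the counts are not of separate regions. Of the higher stretches 15 lay mostly inside genes, and 1 of 17 had a wild-type mean above the array median. Of the lower stretches 47 lay mostly between genes, 12 of all 55 lay in centromere 2, and 39 of 55 had a wild-type mean above the array median. Outside centromere 2 and the right end, 39926 probes of chromosome II were kept. Of these, 10366, 9597 and 8635 lay in the first, middle and last parts of genes, and 2924 in overlaps of genes. Most probes thus lay inside genes, as did most higher stretches. Picking stretches on asf1-1 minus wild type favours low wild-type values in the higher ones and high values in the lower ones. The longest higher stretch spanned 1260 bp in trm734, with a mean of 0.71 in asf1-1 and -0.46 in wild type. Others lay in pus7 and med14, for a pseudouridine synthase and a Mediator subunit, at 0.40 in asf1-1 and -0.81 in wild type, and in cdc28, for an RNA helicase, at 0.61 in asf1-1 and -0.53 in wild type. The highest was the flank of SPBPB2B2.16c, at 0.25 in asf1-1 and -1.07 in wild type.

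Centromere 2, where a central domain that carries the centromeric histone H3 variant is flanked by heterochromatic outer arms, was lower in asf1-1. In the central domain (1619257 to 1629158, between tRNA genes) the median was -3.14 in asf1-1 and -2.10 in wild type over 194 probes, a median change of -1.02. In the outer arms it was -2.99 in asf1-1 and -2.36 in wild type over 588 probes, a median change of -0.60. The left arm changed by -0.61 and the right arm by -0.60, and they share repeats, so they are not independent. In the arms 0.34% of probes were higher in asf1-1. Cy3 was also lower over the centromere, by median changes of -0.37 in the central domain and -0.23 in the arms, and Cy5 changed by -1.40 and -0.83.

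The signal in the central domain was dim: 107 of its 194 probes were not well above background in a channel on either array, against 5 of 588 in the arms. Without such probes the central domain changed by -0.91 and stood 0.31 below the arms (difference -0.31). With normexp background correction its change was -4.76, so its size is not settled by these arrays. With centring on probes between genes the arms changed by -0.17 and the central domain by -0.59.

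**Figure D5:**
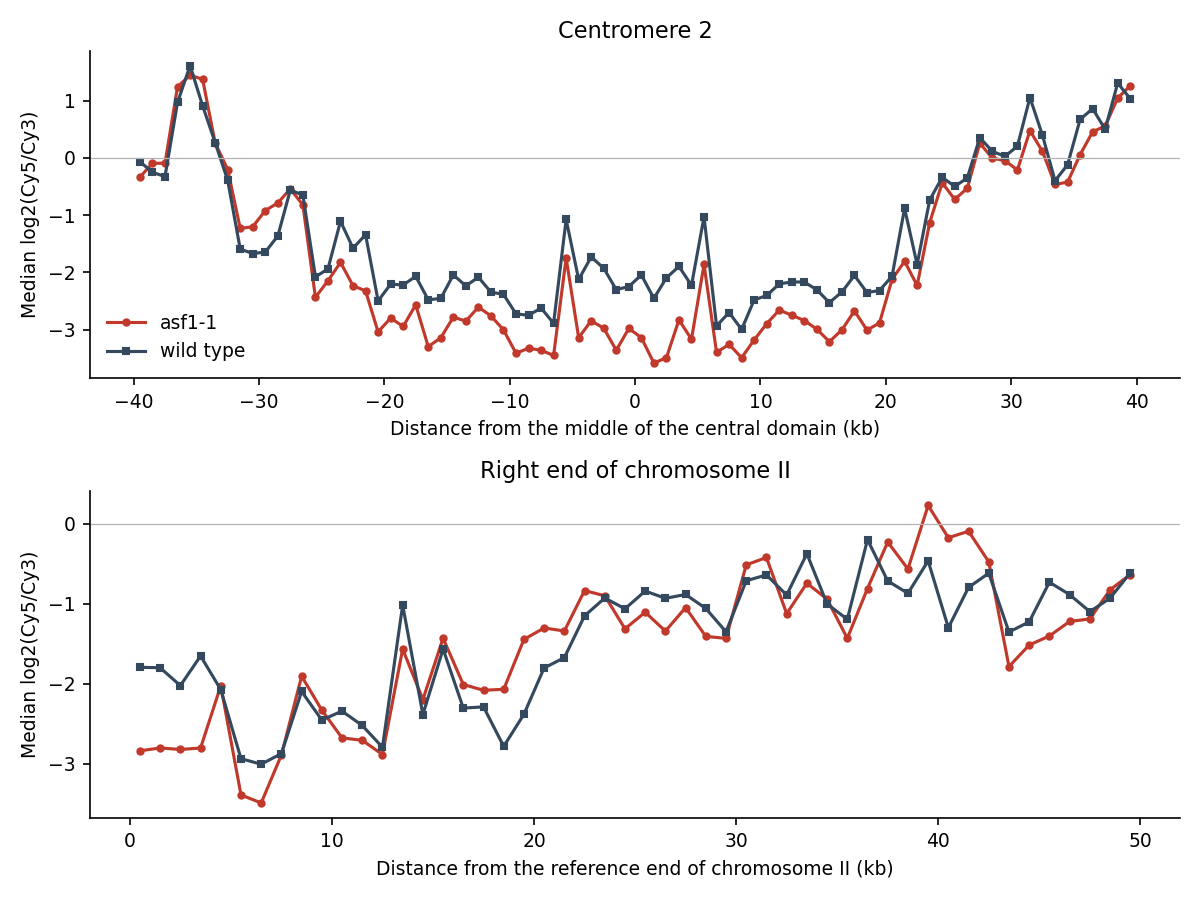
Median log2(Cy5/Cy3) in steps of 1 kb for asf1-1 (red) and wild type (dark blue), across centromere 2 by distance from the middle of its central domain (top) and at the right end of chromosome II by distance from the reference end (bottom). The asf1-1 medians lie below wild type over the central domain and arms, with median changes of -1.02 and -0.60 relative to the array medians (-0.59 and -0.17 with centring on probes between genes), and at the chromosome end the sign of the difference varies with distance.

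Other silent regions did not move as one with the centromere. Next to the mat3 cassette genes (2132586 to 2133394), which lie in the silent mating-type region, probes 1 to 4 kb to either side had medians of -2.43 in asf1-1 and -2.64 in wild type, with a change of 0.07 that turned to -0.03 on Cy5 alone and -0.41 with normexp. The cassette genes themselves had a median change of -0.46, but the mat1 cassette has the same sequence and its signal cannot be told apart. On the extra contig, bases 20 to 34 kb had medians of -2.92 in asf1-1 and -2.61 in wild type. At the right end of chromosome II the outermost 20 kb had medians of -2.33 in asf1-1 and -2.29 in wild type.

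Within that chromosome end, the differences ran in both directions. In the first 1-kb step from the reference end the median was -2.84 in asf1-1 and -1.79 in wild type, a change of -1.04. At 19 to 20 kb from the end it was -1.45 in asf1-1 and -2.38 in wild type, a change of 0.93, over a stretch that holds the pseudogene SPBCPT2R1.06C. At 40 to 41 kb, at the start of SPBPB2B2.16c, it was -0.18 in asf1-1 and -1.30 in wild type, a change of 1.14. Telomere-proximal sequence is repeated at other chromosome ends, and probes there read all copies. In the rDNA at the left end of chromosome III, the median was 0.04 in asf1-1 and 0.36 in wild type over 475 probes, but both channels were brighter there in asf1-1, by median changes of 1.68 in Cy5 and 2.003 in Cy3. Around 14 dispersed tRNA genes the median was -0.74 in asf1-1 and -0.53 in wild type.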

How the data were processed

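H3K9ac was measured by chromatin immunoprecipitation on 2-colour tiling arrays, 1 per strain, as grouped by the labels. The deposited processed intensities, which Feature Extraction 10.7.3.1 by Agilent wrote according to the file headers, were already background-subtracted and dye-normalised; the deposited log10 ratio column was used to check direction, Cy5 over Cy3. The authors' value table, entered as a score because its scale, centring and direction stayed unknown, was used only to check labels (column medians over the 43993 probes -0.03, 0.11 and 0.11 for asf1-1, the alp13 deletion and wild type). No source used here names the build of the probe positions.

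Log2 ratios were centred on each array's median, with no loess step, after outlier spots were dropped. Probes of chromosome II (60 bases, 50 bp apart) were placed on ASM294v3 by matching Cy3 to GC content: array position minus 900 below array base 1616911 and minus 1800 from it on. Best correlations were 0.538, 0.528 and 0.669 in the 3 segments, against 0.341, 0.344 and 0.493 at the next best offsets. A gene's value is the mean over at least 3 probes inside it, and the SD beside it is across probes. The named genes are the 12 highest and 12 lowest with 10 or more probes, the other genes past 1.5-fold, list members, and genes flanking a named gene or region; RNA genes, stretches and regions outside that rule were chosen after their values were seen. The members and lists were chosen with earlier results of these data known. Coordinates of genes and regions are those of ASM294v3. Alternatives were no centring, centring on probes between genes, normexp on the median spot signals (offset 50, limma 3.58.1 in R 4.3.3), equal array spread, Cy5 alone, outliers kept, dim probes left out, the gene median, and 10 probes per gene. Scripts ran in Python 3.11.15 with numpy 2.4.6 and pandas 2.3.3, and were tested on simulated data. The number of arrays limits the precision.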

Additional observations from a re-analysis of the deposited data

How the results depend on the processing

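No paired analysis was possible because each strain had 1 array. Values below are changes of asf1-1 minus wild type, and a move is counted when it exceeds the SD of a single duplicated probe. Without centring, 49 genes were higher and 10 lower, and the changes were 0.17 for the median gene, -0.18 upstream, 0.31 in the middle part, -0.85 in the central domain, -0.44 in the outer arms and -0.65 for glycolysis. With centring on probes between genes the same values were 244 and 3 genes, 0.43, 0.085, 0.58, -0.59, -0.17 and -0.39. Normexp gave 53 genes higher and 37 lower, 0.087 for the median gene, -0.23 upstream, 0.27 in the middle part, -4.76 in the central domain, and -4.12 for the central domain minus the arms. Cy5 alone gave 3 genes higher and 10 lower, 0.39 for the middle part minus upstream, -1.40 in the central domain, -0.83 in the arms and -0.57 for their difference. Leaving out dim probes gave -0.91 in the central domain and -0.31 for that difference. The gene median put glycolysis at -0.63. The cause of these moves was not tested. Of the 34 genes past 1.5-fold, 34 kept their side without dim probes and with outliers kept, 33 at equal spread, 29 with the gene median, 28 with normexp, 25 without centring, 18 with centring on probes between genes and 11 on Cy5 alone, and 0 reversed. Signal over background limits the central domain, and 1 array per strain limits everything else.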
